A study of Homo sapiens with 6 samples.

Results

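The laminin chains, the integrins and a few other basement membrane genes were compared between the prostate cancer cell line C4-2B and its cabazitaxel (CBZ) resistant subclone RC4-2B. The protein-coding genes were picked from the deposited table by symbol: LAMA, LAMB or LAMC followed by a digit, ITGA or ITGB followed by letters or digits, NID1, NID2, HSPG2, AGRN and DAG1. The rule found 47 of the 58735 genes in the table. They were 12 laminin chains, 18 integrin alpha subunits, 8 integrin beta subunits, 2 nidogens, perlecan (HSPG2), agrin (AGRN) and dystroglycan (DAG1). The pattern for integrin names also matched ITGB1BP1, ITGB1BP2, ITGB3BP and ITGBL1, 4 genes that encode no integrin subunit and are described apart from the subunits.

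Total RNA was sequenced from 3 biological replicates of each cell line. C4-2B is an established line of castration-resistant prostate cancer. RC4-2B was derived from it by 72 h treatments with CBZ, a taxane that stabilises microtubules, each followed by recovery, at concentrations raised from 0.1 nM to 20 nM over 4 months. RC4-2B is 1 subclone, so what CBZ selection does in general and what is particular to that subclone cannot be told apart. The labels give no treatment for either line and name RPMI-1640 medium with 10% FBS, and no drug is named for the cells from which RNA was taken. The study's methods name charcoal-stripped serum, which is depleted of steroid hormones, besides FBS, so that the androgen supply of these cultures is not settled by the sources. The replicates are libraries of 2 cell lines, and p-values measure the spread between these libraries.

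Laminins are secreted as trimers of an alpha, a beta and a gamma chain, and they form the sheet on which a basement membrane assembles. Nidogens, perlecan and agrin bind that sheet, and cells hold on to it through integrins, which are dimers of an alpha and a beta subunit, and through dystroglycan. In the prostate the basement membrane lies under the basal and luminal epithelium and is remodelled when carcinoma cells invade.

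LAMB2, which encodes the laminin beta-2 chain, fell in RC4-2B, while no other chain or receptor gene passed the same test. The deposited table places LAMB2 (ENSG00000172037) on the minus strand at chr3:49121114-49133118 (GRCh38), and GENCODE release 44 gives the same span with 32 exons. LAMB1, the beta-1 chain gene, is at chr7:107923799-108003255 on the minus strand, and LAMC1, the gamma-1 chain gene that both beta chains can join, is at chr1:183023460-183145592 on the plus strand. Because the results turn on how these chains stand to each other, the 250 bases before the outermost start of each gene in the deposited table, GENCODE or RefSeq are shown, read 5′ to 3′ on the gene's strand from the GRCh38 genome. Capitals mark matches, searched on both strands. The GC box was searched as GGGCGG and the TATA box as TATAAA. The CCAAT box was searched by the letters of its name, the E-box by CANNTG and the AP-1 site by TGANTCA, and no matches overlapped.
LAMB2, chr3:49133119-49133368: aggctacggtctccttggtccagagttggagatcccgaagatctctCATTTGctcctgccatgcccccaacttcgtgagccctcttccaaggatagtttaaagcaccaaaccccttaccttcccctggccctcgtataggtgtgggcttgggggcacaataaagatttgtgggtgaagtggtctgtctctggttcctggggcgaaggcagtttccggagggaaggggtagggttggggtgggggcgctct
LAMB1, chr7:108003256-108003505: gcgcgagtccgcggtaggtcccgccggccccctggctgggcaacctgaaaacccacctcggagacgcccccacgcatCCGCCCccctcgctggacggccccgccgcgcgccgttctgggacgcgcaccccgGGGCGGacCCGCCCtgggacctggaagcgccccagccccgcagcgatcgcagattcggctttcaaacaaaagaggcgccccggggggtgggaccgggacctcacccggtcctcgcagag
LAMC1, chr1:183023170-183023419: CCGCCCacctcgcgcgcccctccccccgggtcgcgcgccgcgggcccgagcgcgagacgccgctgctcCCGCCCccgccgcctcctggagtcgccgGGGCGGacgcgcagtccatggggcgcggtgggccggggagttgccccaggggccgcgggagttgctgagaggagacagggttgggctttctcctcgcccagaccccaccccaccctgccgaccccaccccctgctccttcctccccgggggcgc
The window of LAMB2 held 56.8% G and C, against 74.8% for LAMB1 and 79.6% for LAMC1. LAMB1 and LAMC1 each held 3 GC boxes, and LAMB2 held none. LAMB2 held 1 E-box, and the other motifs were not found in these windows. Of 35116 RefSeq windows that cover the 250 bases before a gene's RefSeq start, 42.6% held a GC box and 61.8% an E-box. These matches describe letters and were not tested for any bearing on expression.

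The authors deposited a count of reads per gene in each library and FPKM values, which divide the count by gene length and library total. Counts were used to compare the cell lines gene by gene in the main test. FPKM values were used to set genes beside each other within a library. Sums, shares and ratios of FPKM were then compared between the lines, and limma was run on FPKM as an alternative. Library totals were 15707134 to 18052517 counts, and 3 counts, taken as the floor of detection, corresponded to 0.170 to 0.188 CPM, the unit of counts scaled to an equal library total. RC4-2B replicate 2 stood apart: the SD of its log2 difference from RC4-2B replicates 1 and 3 over 9568 well-expressed genes was 0.605 and 0.528, against 0.219 between replicates 1 and 3 and 0.136 to 0.195 within C4-2B. Values without this library are given beside some of the genes and sums, not all of those it moved. Of the 8 luminal prostate markers, all were expressed in both lines, with KRT8, KRT18 and FOLH1 not called and KLK3 and TMPRSS2 lower in RC4-2B. Summed CPM of basal markers reached 0.968 at most, with KRT5 and TP63 at 0 counts, and that of leukocyte markers 0.455. COL1A2, DCN and LUM among the 6 fibroblast markers and PECAM1 among the 4 endothelial markers were at 0 in all 6 libraries. The summed CPM of fibroblast markers, mostly COL1A1, was 24.5 to 27.9 in C4-2B and 26.8 to 41.3 in RC4-2B. The summed CPM of endothelial markers, almost all VWF, was 7.47 to 8.14 in C4-2B and 3.70 to 5.25 in RC4-2B, and their part in the results was not tested.

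Counts were high enough to test 30 of the 47 genes (edgeR's filterByExpr with a minimum of 10 counts). The other 17 had at most 20 counts in any library, and 9 of them never exceeded 3 counts. NID1 and ITGB3 had no count at all. The test was the quasi-likelihood test of edgeR, with p-values adjusted by Benjamini-Hochberg over 15054 tested genes and a threshold of 0.05. By this test 1 of the 30 genes, LAMB2, was lower in RC4-2B and 0 were higher. Over all tested genes 0.903% were called lower and 1.08% higher, 1.98% in all, so that the share of these genes called was near the background. At an unadjusted p under 0.05, 4 of the 30 passed (LAMB2, LAMB1, LAMA3 and ITGB1), where 21.4% of all tested genes did. DESeq2 called LAMB2 lower and LAMB1 higher, against a background of 5.93% in all, 2.64% lower and 3.28% higher. Limma on log2 FPKM called LAMB2 alone. The median log2 fold change over the 30 genes was 0.19, against 0.0063 over all tested genes. Of the 30 genes 21 were above 0 and 9 below, where 7627 and 7427 of all 15054 tested genes were. In 6 genes the RC4-2B libraries all lay above the C4-2B libraries in CPM and in 2 all below, where the same held for 17.0% and 17.1% of all tested genes.

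**Figure D1:**
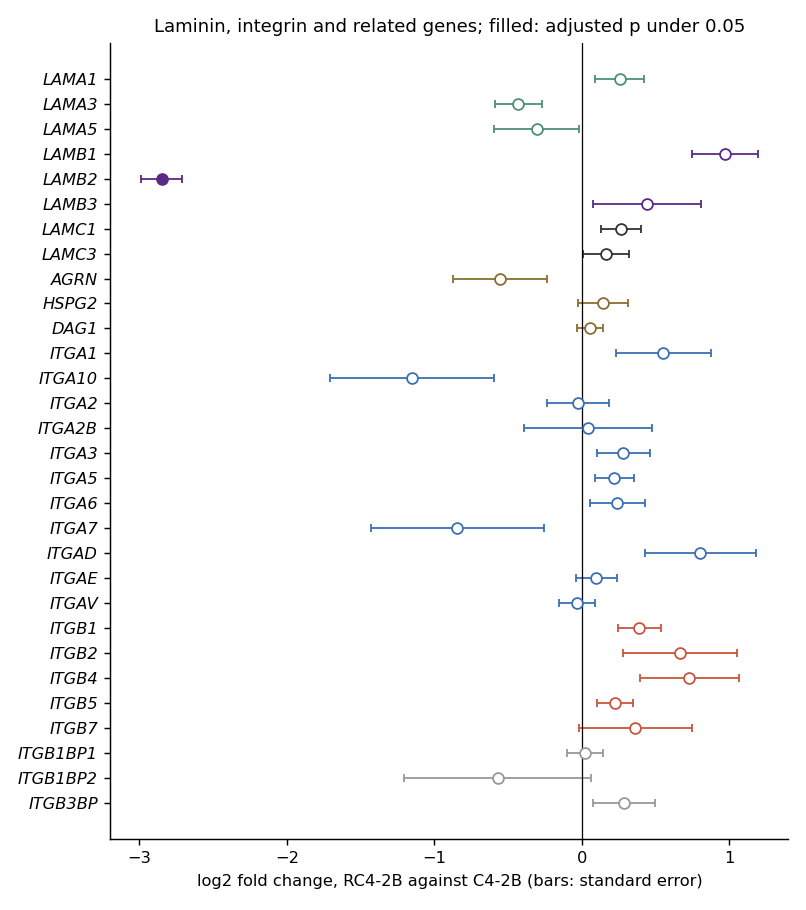
Fold changes on the log2 scale of the 30 tested genes in RC4-2B against C4-2B from edgeR, with bars for the standard error. The colours mark alpha, beta and gamma laminin chains, the agrin, perlecan and dystroglycan genes, integrin alpha and beta subunits, and integrin-named genes that are no subunits. LAMB2 at -2.85 is the filled point, past an adjusted p of 0.05, and the open points run from -1.15 (ITGA10) to 0.97 (LAMB1).

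LAMB2 had 1430, 1621 and 1694 counts in C4-2B replicates 1 to 3, and 229, 196 and 212 counts in RC4-2B replicates 1 to 3. Every RC4-2B library was below every C4-2B library by a wide margin, and LAMB2 remained well above the floor of detection. Its level per length fell from 11.9 ± 0.776 FPKM (SD, n = 3) to 1.68 ± 0.174 FPKM (SD, n = 3). The fall of 2.85 on the log2 scale (SE 0.14, edgeR's adjusted p = 0.000116) put LAMB2 at rank 2 of all tested genes by p-value, but only at rank 34 of the 136 genes called lower by size. Without RC4-2B replicate 2 the log2 fold change was -2.77 (adjusted p = 2.87e-10 from edgeR). With a correction for the GC content of the transcripts it was -2.55 (adjusted p = 2.19e-06 from edgeR).

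LAMB1 had 367, 352 and 551 counts in C4-2B, and 796, 1009 and 615 counts in RC4-2B. The lowest RC4-2B library was above the highest C4-2B library, but the replicates of each line spread widely. Its level was 2.69 ± 0.691 FPKM in C4-2B and 5.36 ± 1.30 FPKM in RC4-2B (SD, n = 3 each). The log2 fold change of 0.97 (SE 0.22) missed the threshold in edgeR (adjusted p = 0.0661). It passed in DESeq2 (adjusted p = 0.00254), in edgeR without RC4-2B replicate 2 (adjusted p = 0.00548) and in edgeR with the GC correction (adjusted p = 0.0166), with values of 0.81 in the second and 1.01 in the third. Over all fits run, its adjusted p from edgeR, DESeq2 or limma ranged from 0.000478 to 0.318. The call on LAMB1 therefore depended on the test and on 1 library, and its direction did not in any fit that was run.

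LAMB3, the beta chain of the laminin found in hemidesmosomes, had 13, 10 and 10 counts in C4-2B against 10, 16 and 18 counts in RC4-2B, and the groups overlapped. LAMB4 had 3 to 11 counts and was not tested. The order of the beta chains by FPKM was thus LAMB2, LAMB1, LAMB3, LAMB4 in C4-2B and LAMB1, LAMB2, LAMB3, LAMB4 in RC4-2B. In both lines the ranges of neighbours in this order did not overlap.

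LAMB2 made up 81.2%, 83.8% and 77.7% of the summed beta chain FPKM in C4-2B replicates 1 to 3. In RC4-2B replicates 1 to 3 it made up 24.9%, 18.2% and 27.6%. The main beta chain transcript thus was LAMB2 in each C4-2B library and LAMB1 in each RC4-2B library. The mean share of LAMB2 was 80.9% ± 3.06 and 23.6% ± 4.82, and that of LAMB1 was 18.1% ± 3.01 and 73.2% ± 5.84 (SD, n = 3 each). An exact two-sided permutation test over the libraries gave p = 0.1 for the share of LAMB2, the smallest value that 3 against 3 libraries allow.

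With the lower LAMB2 and the higher LAMB1 level added up, the beta chain transcripts were fewer in RC4-2B. Summed beta chain FPKM was 13.7, 14.2 and 16.3 in the C4-2B libraries against 7.50, 8.35 and 5.94 in the RC4-2B libraries, and the groups did not overlap. The mean in C4-2B was 2.03 times that in RC4-2B (exact permutation p = 0.1, two-sided, the smallest possible). Summed gamma chain FPKM moved the other way, from 33.8 ± 2.74 to 40.9 ± 5.56 (SD, n = 3 each, exact permutation p = 0.1), but the lowest RC4-2B library at 36.6 FPKM lay just above the highest C4-2B library at 36.2 FPKM. Without RC4-2B replicate 2 the difference in summed gamma chain FPKM was 4.01 in place of 7.15. Summed alpha chain FPKM was 15.6 ± 2.59 and 12.3 ± 2.55, and the groups overlapped (exact permutation p = 0.2). Without RC4-2B replicate 2 the alpha chain difference was -1.88 in place of -3.20 FPKM, and the beta chain difference -8.03 in place of -7.48 FPKM. The ratio of summed beta to summed gamma chain FPKM was 0.437 ± 0.0197 in C4-2B and 0.178 ± 0.0261 in RC4-2B.

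**Figure D2:**
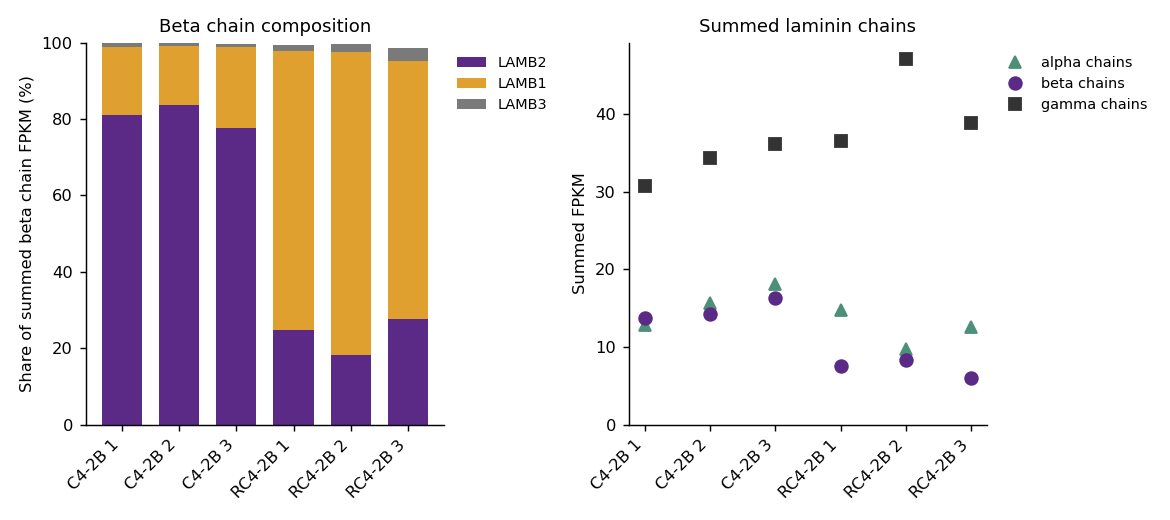
Left, share of LAMB2, LAMB1 and LAMB3 in the summed FPKM of the beta chain genes in each library, in percent, where the small rest is LAMB4. Right, summed FPKM of the alpha, beta and gamma chain genes in each library. LAMB2 takes 77.7% to 83.8% of the bar in C4-2B and 18.2% to 27.6% in RC4-2B, and the beta chain sum is lower in every RC4-2B library.

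Among the gamma chains, LAMC1 was the most abundant laminin transcript in both lines. It had 26.3, 29.8 and 31.2 FPKM in C4-2B and 30.6, 42.9 and 33.3 FPKM in RC4-2B. The groups overlapped, and the highest value was that of RC4-2B replicate 2 (log2 fold change 0.26, SE 0.13, adjusted p = 0.28 from edgeR, or 0.13 and adjusted p = 0.345 without that library). LAMC3, whose chain joins a smaller set of laminins, had 4.51, 4.56 and 4.90 FPKM in C4-2B and 5.99, 4.28 and 5.58 FPKM in RC4-2B. Its log2 fold change was 0.16 (adjusted p = 0.536 from edgeR) with all libraries, 0.31 without RC4-2B replicate 2 (adjusted p = 0.0428) and 0.53 with the GC correction (adjusted p = 0.0179). LAMC1 held 86.1% ± 0.716 of the gamma chain FPKM in C4-2B and 86.7% ± 3.77 in RC4-2B (SD, n = 3 each).

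Among the alpha chains, which carry the main receptor-binding site of a laminin, LAMA3 and LAMA5 were the abundant transcripts. LAMA3 had 6.84, 8.74 and 10.0 FPKM in C4-2B and 7.20, 6.04 and 6.06 FPKM in RC4-2B. The groups overlapped (log2 fold change -0.43, SE 0.16, adjusted p = 0.183 from edgeR). LAMA5 had 5.64, 6.47 and 7.51 FPKM in C4-2B and 7.04, 3.02 and 5.97 FPKM in RC4-2B, so that RC4-2B replicate 2 alone lay below the range of C4-2B. Its log2 fold change was -0.31 (adjusted p = 0.524 from edgeR), -0.01 without that library and 0.15 with the GC correction. LAMA1 was present at 0.41 to 0.635 FPKM in all libraries (log2 fold change 0.26, adjusted p = 0.371 from edgeR). LAMA2 and LAMA4, the alpha chains known from muscle and vessels, had at most 3 counts in any library. LAMA3 is known to pair with LAMB3 in hemidesmosomes, and LAMB3 was at a mean of 0.122 FPKM in C4-2B, beside 8.54 FPKM for LAMA3. LAMA1 and LAMA3 lie on chromosome 18, where the median log2 fold change over 230 tested genes was -0.18, and the part of the chromosome in their values was not tested.

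**Figure D3:**
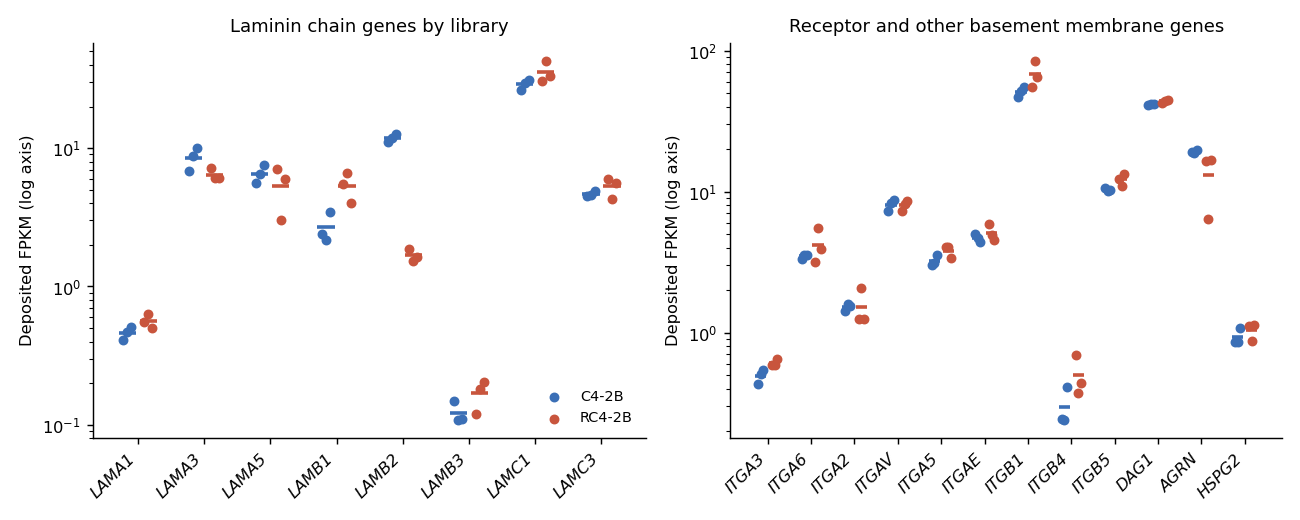
Deposited FPKM on a log axis of the laminin chain genes with a mean of at least 0.1 FPKM (left) and of receptor and other basement membrane genes (right), with 1 point per library and a line at the mean of each cell line. LAMB2 drops from 11.1 to 12.7 FPKM in C4-2B to 1.52 to 1.87 FPKM in RC4-2B, LAMB1 lies higher in RC4-2B, and a single low RC4-2B point of AGRN and of LAMA5 is replicate 2.

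LAMB2 was set against each partner chain and laminin receptor within the same library, as the log2 ratio of FPKM. LAMB2 to LAMC1 was -1.24, -1.32 and -1.30 in the C4-2B libraries, against -4.04, -4.82 and -4.34 in the RC4-2B libraries. The ratio differed by -3.11 between the means, and its spread in C4-2B was small (SD 0.04, n = 3) beside that in RC4-2B (SD 0.39, n = 3). The ratio to LAMB1 changed sign, from 2.17 ± 0.29 to -1.65 ± 0.42 (SD, n = 3 each). LAMB2 to LAMA5 went from 0.87 to -1.59, LAMB2 to LAMA3 from 0.49 to -1.94, and LAMB2 to LAMC3 from 1.35 to -1.65. In C4-2B, LAMB2 thus stood above LAMA3, LAMA5 and LAMC3 per length, and in RC4-2B it stood below all of them. Against the receptors the ratio differed by -2.91 for DAG1, -3.14 for ITGA3, -3.07 for ITGA6, -2.03 for ITGA7, -3.23 for ITGB1 and -3.58 for ITGB4. All 12 ratios were lower in every RC4-2B library than in any C4-2B library, each with an exact two-sided permutation p = 0.1, also 0.1 after Benjamini-Hochberg adjustment over the 12. LAMB2 is in every ratio, so that the 12 do not count as separate results. The ratios to LAMA2 and LAMA4 were left out because a library was at 0.

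The integrin beta-1 subunit gene ITGB1, the common partner of most laminin-binding alpha subunits, was the most abundant integrin transcript. It had 47.1, 51.3 and 55.4 FPKM in C4-2B and 55.5, 84.9 and 65.2 FPKM in RC4-2B. The groups did not overlap, but the lowest RC4-2B value lay just above the highest of C4-2B, and replicate 2 was the highest (log2 fold change 0.39, SE 0.15, adjusted p = 0.189 from edgeR). Without RC4-2B replicate 2 the log2 fold change was 0.23 (adjusted p = 0.101 from edgeR). ITGB1 made up 82.4% ± 1.40 of the beta subunit FPKM in C4-2B and 83.4% ± 3.95 in RC4-2B (SD, n = 3 each). ITGB5, a partner of ITGAV in the binding of vitronectin, came next with 10.7, 10.1 and 10.2 FPKM in C4-2B and 12.4, 11.0 and 13.4 FPKM in RC4-2B. Its log2 fold change was 0.23 (adjusted p = 0.297 from edgeR), and 0.32 without RC4-2B replicate 2 (adjusted p = 0.0248 from edgeR). ITGB4, which joins ITGA6 in hemidesmosomes, was at 0.245, 0.239 and 0.41 FPKM in C4-2B and 0.695, 0.371 and 0.44 FPKM in RC4-2B. The ITGB4 groups overlapped, and its value of 0.73 on the log2 scale (edgeR's adjusted p = 0.248) became 1.12 with the GC correction (adjusted p = 0.0403 from edgeR). All 5 tested beta subunits had a log2 fold change above 0, from 0.23 to 0.73, where 7627 of all 15054 tested genes were above 0. In edgeR and DESeq2 0 of the 5 passed. At an unadjusted p under 0.05 in edgeR 1 passed (ITGB1), where 21.4% of all tested genes did. Without RC4-2B replicate 2, 1 of the 5 passed (ITGB5), where 6.50% of all tested genes were called higher.

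Of the alpha subunits that bind laminin, ITGA6 had 3.35, 3.55 and 3.56 FPKM in C4-2B and 3.19, 5.49 and 3.94 FPKM in RC4-2B. RC4-2B replicate 2 was again the highest, and the groups overlapped (log2 fold change 0.24, adjusted p = 0.435 from edgeR). The log2 fold change of ITGA6 was 0.03 without that library and 0.09 with the GC correction. ITGA3 was lower in level, with 0.436, 0.51 and 0.54 FPKM in C4-2B and 0.588, 0.593 and 0.656 FPKM in RC4-2B. The ITGA3 groups did not overlap, and the difference did not pass the test (log2 fold change 0.28, SE 0.18, adjusted p = 0.359 from edgeR, or 0.64 and adjusted p = 0.0988 with the GC correction). ITGA2, known as a collagen and laminin receptor subunit, had 1.42, 1.59 and 1.56 FPKM in C4-2B and 1.25, 2.08 and 1.24 FPKM in RC4-2B. Its RC4-2B libraries lay on both sides of the C4-2B range (log2 fold change -0.03, adjusted p = 0.946 from edgeR, or -0.29 and adjusted p = 0.176 without replicate 2). ITGA7 and ITGA1 had at most 32 and 38 counts in a library, and ITGA9 at most 11. Their log2 fold changes were -0.84 for ITGA7 (adjusted p = 0.4 from edgeR, or -0.54 without RC4-2B replicate 2) and 0.55 for ITGA1 (adjusted p = 0.326 from edgeR), and ITGA9 was not tested.

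The most abundant alpha subunit transcripts encode subunits known from receptors of other ligands, and whether those receptors form in these cells was not tested. ITGAV, whose integrins bind vitronectin and fibronectin, was first at a mean of 8.09 FPKM in C4-2B and 8.04 FPKM in RC4-2B. ITGAE, the alpha subunit known from intraepithelial T cells, was second at 4.70 and 5.12 FPKM, although PTPRC and CD3E, which mark leukocytes and T cells, had at most 3 counts. ITGA6 and ITGA5, the fibronectin receptor subunit, followed at 3.49 and 3.22 FPKM in C4-2B, and their ranges overlapped. In RC4-2B the ranges of ITGAE, ITGA6 and ITGA5 overlapped from neighbour to neighbour, and ITGAV stayed above them. ITGA5 differed by 0.22 on the log2 scale (edgeR's adjusted p = 0.337). Over the 11 tested alpha subunits, 0 passed in edgeR or DESeq2. At an unadjusted p under 0.05 in edgeR 0 passed as well, where 21.4% of all tested genes did. The log2 fold changes of the 11 ran from -1.15 (ITGA10, at most 22 counts) to 0.80 (ITGAD, at most 24 counts). ITGA3, ITGAE, ITGB4 and ITGA2B lie on chromosome 17, where the median log2 fold change over 944 tested genes was 0.15, and the part of the chromosome in their values was not tested.

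The untested subunits were ITGA4, ITGA8, ITGA9, ITGA11, ITGAL, ITGAM and ITGAX among the alpha subunits, and ITGB3, ITGB6 and ITGB8 among the beta subunits. ITGA11 reached 20 counts, ITGA9 11, ITGB8 7 and the others at most 5. At this depth, these genes were left out of the main test. ITGA11 had 13, 9 and 20 counts in C4-2B and 7, 8 and 8 counts in RC4-2B. DESeq2, which tested it, did not call it (log2 fold change -0.84, adjusted p = 0.468). Of the integrin-named genes that encode no subunit, ITGB1BP1, whose product binds the tail of integrin beta-1, differed by 0.02 on the log2 scale (edgeR's adjusted p = 0.916). ITGB3BP, also known as the centromere protein CENPR, had 0.29 (adjusted p = 0.425 from edgeR) and 0.00 without RC4-2B replicate 2, and ITGB1BP2 had at most 14 counts. ITGBL1 had 1 count in all.

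DAG1, which encodes both subunits of dystroglycan, varied little between libraries. It had 41.2, 41.6 and 41.5 FPKM in C4-2B and 42.6, 44.1 and 44.7 FPKM in RC4-2B. The RC4-2B libraries lay just above those of C4-2B, and the difference did not pass the test (log2 fold change 0.05, SE 0.09, adjusted p = 0.727 from edgeR). AGRN, a heparan sulphate proteoglycan that links laminin to dystroglycan, had 19.2, 18.8 and 19.8 FPKM in C4-2B and 16.5, 6.41 and 16.8 FPKM in RC4-2B. All RC4-2B libraries were below C4-2B, with replicate 2 far below the other two (log2 fold change -0.55, SE 0.32, adjusted p = 0.325 from edgeR). The log2 fold change of AGRN was -0.21 without replicate 2 (adjusted p = 0.0736 from edgeR) and -0.06 with the GC correction. HSPG2 had 0.855, 0.858 and 1.07 FPKM in C4-2B and 1.11, 0.878 and 1.14 FPKM in RC4-2B, and the groups overlapped (log2 fold change 0.14, adjusted p = 0.619 from edgeR). The log2 fold change of HSPG2 was 0.27 without replicate 2 (adjusted p = 0.183 from edgeR) and 0.62 with the GC correction (adjusted p = 0.0583 from edgeR). NID2 had 3 to 6 counts per library, so that neither nidogen was measured well enough to compare.

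The values of RC4-2B replicate 2 tended to follow the GC content of the transcripts among these genes. Over the 30 tested genes, its log2 deviation from the mean of RC4-2B replicates 1 and 3 had a Spearman correlation of -0.737 with GC content, given as a description because all points come from the same 3 libraries. AGRN deviated by -1.43 at 67.9% GC and LAMA5 by -1.16 at 66.4% GC, whereas ITGB3BP deviated by 0.71 at 42.3% GC and ITGA2 by 0.66 at 40.1% GC. Some genes lay off this trend, such as ITGB1BP2, at low counts, with -1.025 at 50.5% GC and ITGAV with -0.03 at 33.5% GC. LAMB2, at 60.3% GC, deviated by -0.25, which is small beside its difference between the lines. With the GC correction, 3 of the 30 genes passed as higher in edgeR (LAMB1, LAMC3 and ITGB4) and 1 as lower (LAMB2), where 4.36% and 3.25% of all tested genes did, 7.62% in all. Without replicate 2, 3 passed as higher (LAMB1, LAMC3 and ITGB5) and 1 as lower (LAMB2), where 6.50% and 6.02% of all tested genes did, 12.5% in all.

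The genes close to LAMB2 were read off the same fit. In the 0.5 Mb on either side of its 5′ end, 30 other genes were tested. Of these, 0 were called in edgeR or DESeq2, where 1.98% and 5.93% of all tested genes were. At an unadjusted p under 0.05, 2 passed, where 21.4% of all tested genes did. The log2 fold changes of the 30 ran from -0.75 to 0.36 with a median of -0.10. Below 0 were 22 of the 30, and 7427 of all 15054 tested genes. With the GC correction the median of the 30 was 0.04. In the wider window of 1 Mb on either side, 52 other genes were tested, of which 42 were below 0 (median -0.12, or 0.02 with the GC correction). In edgeR 0 of the 52 were called, with 4 at an unadjusted p under 0.05, beside the same shares over all tested genes. DESeq2 called 2 of the 52 lower, where 2.64% of all genes it tested were. These were CAMKV and TMA7, named here after their values were seen. CAMKV was at -1.39 (edgeR's adjusted p = 0.071, DESeq2's adjusted p = 0.0096) and TMA7 at -0.54 (edgeR's adjusted p = 0.0802, DESeq2's adjusted p = 0.0226). Both passed in edgeR without RC4-2B replicate 2 (adjusted p = 0.0152 and 0.00758), where 6.02% of all tested genes were called lower. The nearest were USP19 at -0.21 and QARS at 0.01 on one side, and CCDC71 at -0.05 and KLHDC8B at -0.31 on the other, and none of these passed. DAG1 itself starts 335.6 kb from LAMB2 in the same window. A pseudogene of LAMB2, LAMB2P1 (ENSG00000270441, listed as AC135506.1), starts 27.7 kb from it and had 10, 7 and 7 counts in C4-2B against 9, 8 and 6 counts in RC4-2B. Those counts were low beside those of LAMB2 and overlapped between the lines, and how reads that match both were counted is not given in the sources used here.

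**Figure D4:**
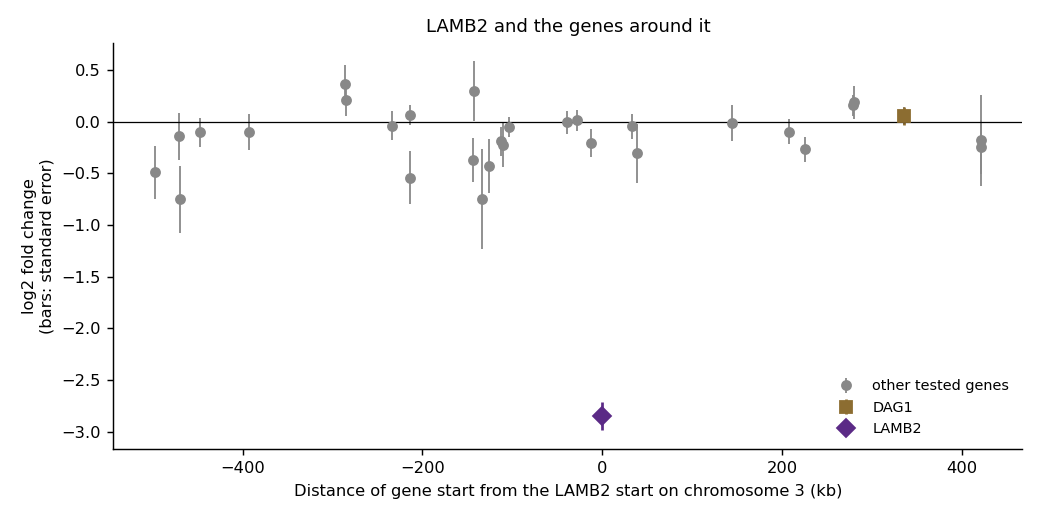
Log2 fold change in RC4-2B against C4-2B of LAMB2, DAG1 and the other tested genes whose 5′ ends lie within 0.5 Mb of that of LAMB2, plotted by distance in kb, with bars for the standard error. LAMB2 lies at -2.85, and the 30 other genes, DAG1 included, lie between -0.75 and 0.36.

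Around these genes, 7 lists of adhesion and matrix genes were read off the same fit. The lists hold 162 genes, of which 108 were tested, and they were chosen with earlier results of these data known, so that their counts are no independent evidence. In edgeR 8 of the 108 were higher and 6 lower in RC4-2B, where 1.08% and 0.903% of all tested genes were. DESeq2 called 11 higher and 8 lower, where 3.28% and 2.64% of all genes it tested were. The median log2 fold change over the 108 genes was -0.05. The counts depended on the libraries: without C4-2B replicate 1, 2 or 3 they fell to 1, 2 and 1 higher with 1 lower each time, and without RC4-2B replicate 3 to 2 higher and 3 lower. Without RC4-2B replicate 2 they were 16 higher and 12 lower, where 6.50% and 6.02% of all tested genes were called.

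In the dystroglycan pathway list (24 of 32 tested), 2 genes rose and 0 fell, where 1.08% and 0.903% of all tested genes did. SGCE, the epsilon-sarcoglycan gene, rose from 0.481 ± 0.0839 to 3.77 ± 0.563 CPM (SD, n = 3 each), or by 2.95 on the log2 scale (SE 0.29, edgeR's adjusted p = 0.00282). SGCE lies at chr7:94524204-94656572, and the median log2 fold change over 753 tested genes of chromosome 7 was 0.04. The part of its position in the rise was not tested. DMD, which encodes dystrophin, the link from dystroglycan to actin, had 1.13, 0.963 and 1.14 CPM in C4-2B and 4.06, 6.96 and 4.11 CPM in RC4-2B. The groups were well apart (log2 fold change 2.22, SE 0.30, adjusted p = 0.0117 from edgeR), at levels that are low beside DAG1 itself. SGCE passed in every fit with 1 library left out, with adjusted p up to 0.0322, and DMD passed in 3 of 6. The other 22 genes of this list, which include the enzymes that glycosylate dystroglycan for laminin binding, did not pass.

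Among other basement membrane genes (13 of 25 tested), 1 rose and 2 fell, where 1.08% and 0.903% of all tested genes did. NPNT, which encodes nephronectin, an integrin ligand of basement membranes, rose from 7.07 ± 0.769 to 18.3 ± 2.71 CPM (log2 fold change 1.37, adjusted p = 0.00896 from edgeR). FRAS1, which encodes an epithelial basement membrane protein, fell from 15.1 ± 2.31 to 5.60 ± 0.14 CPM (log2 fold change -1.43, adjusted p = 0.00758 from edgeR). PXDN, the peroxidase that cross-links collagen IV, fell from 24.9 ± 1.33 to 9.81 ± 1.97 CPM (log2 fold change -1.34, adjusted p = 0.00964 from edgeR). None of these 3 genes, named because they passed the test, overlapped between the lines in CPM. Over all tested genes, 17.0% lay higher without overlap and 17.1% lower. With 1 library left out, FRAS1 passed in 4 of 6 fits, and NPNT and PXDN in 3 of 6.

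In the focal adhesion list (30 of 33 tested), 4 genes rose and 0 fell, where 1.08% and 0.903% of all tested genes did. They were 3 tensins, which tie integrin tails to actin, and the kindlin gene FERMT2, whose product activates integrins. TNS4 rose by 1.60 on the log2 scale, from 1.34 to 4.08 CPM (adjusted p = 0.0284 from edgeR). TNS3 rose by 1.15 (adjusted p = 0.0281), TNS1 by 0.77 (adjusted p = 0.0317) and FERMT2 by 0.67 (adjusted p = 0.0383), all on the log2 scale and from edgeR. Each of these 4 passed in only 2 of the 6 fits with 1 library left out. The other 26 genes of the list did not pass. Among them were the tensin gene TNS2, at -0.10 on the log2 scale (adjusted p = 0.751 from edgeR), and the other kindlin genes. FERMT1 was at 0.03 (adjusted p = 0.887 from edgeR), and FERMT3, with at most 18 counts, at -0.69 (adjusted p = 0.532 from edgeR).

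Among other integrin ligands (13 of 29 tested), 0 rose and 2 fell, where 1.08% and 0.903% of all tested genes did. FN1, the fibronectin gene, had 395, 486 and 707 CPM in C4-2B and 199, 277 and 156 CPM in RC4-2B. The RC4-2B libraries were all below C4-2B, with a wide spread in both lines (log2 fold change -1.33, SE 0.26, adjusted p = 0.0414 from edgeR), and FN1 passed in 1 of 6 fits with a library left out. THBS1, the thrombospondin-1 gene, fell from 48.0 ± 8.15 to 16.1 ± 3.44 CPM (log2 fold change -1.58, adjusted p = 0.00854 from edgeR), and passed in 5 of 6 such fits. Of the matrix proteases and their inhibitors (8 of 20 tested), TIMP2 rose from 43.9 ± 2.64 to 72.4 ± 7.34 CPM (log2 fold change 0.72, adjusted p = 0.0276 from edgeR) and the protease gene ADAMTS1 fell from 266 ± 9.50 to 187 ± 3.01 CPM (log2 fold change -0.50, adjusted p = 0.0342 from edgeR). Among the other matrix receptors (13 of 15 tested), SDC2, the syndecan-2 gene, fell from 4.92 to 2.13 CPM, close to the threshold (log2 fold change -1.21, adjusted p = 0.0499 from edgeR). TIMP2, ADAMTS1 and SDC2 each passed in 2 of 6 fits with a library left out. In the hemidesmosome and tetraspanin list (7 of 8 tested), 0 genes passed in edgeR, 2 passed at an unadjusted p under 0.05, and DESeq2 called 1. The shares over all tested genes were 1.98%, 21.4% and 5.93%.

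**Figure D5:**
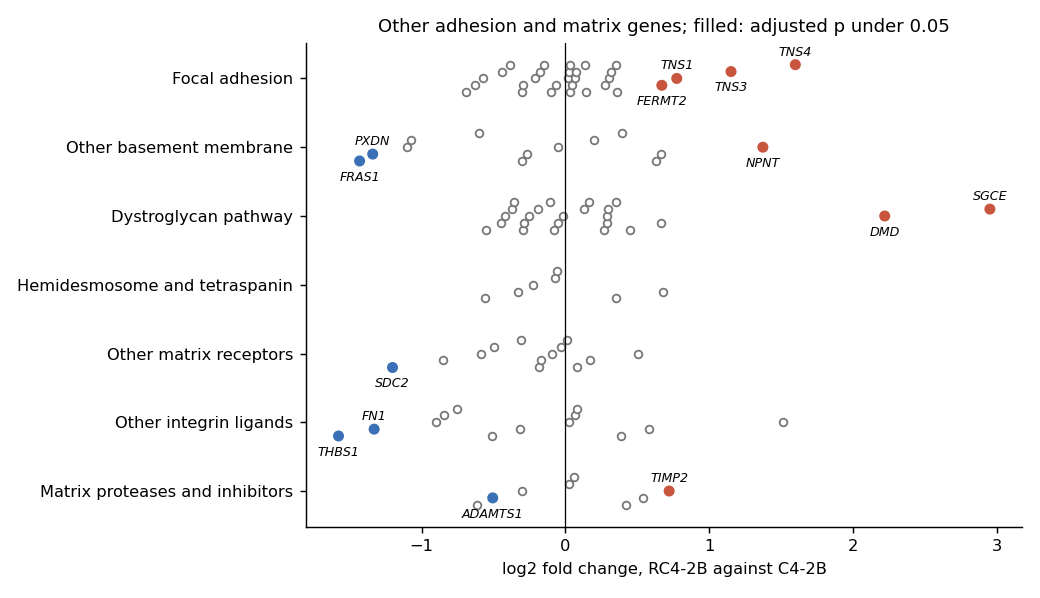
Log2 fold change in RC4-2B against C4-2B of the 108 tested genes in 7 lists of adhesion and matrix genes, 1 row per list, with points shifted up or down only to keep them apart. Filled and named points passed an adjusted p of 0.05 in edgeR, 8 higher (red) and 6 lower (blue), and run from -1.58 (THBS1) to 2.95 (SGCE).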

How the data were processed

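RNA-seq of 3 C4-2B and 3 RC4-2B libraries was used. Reads were aligned by the authors with STAR to the build GRCh38 (per the labels), and they deposited whole-number counts per gene without normalization, and FPKM values, counts the authors divided by gene length and library total. The counting program, its use of strand, its treatment of multi-mapped reads and the annotation release are not given in the sources used here, so paralogs and overlapping genes are uncertain. No deposited column of other samples was used.

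The cell lines were compared on counts by edgeR 4.0.16 under R 4.3.3 (TMM scaling, filterByExpr with a minimum of 10 counts, prior count 0.125, glmQLFit and glmQLFTest, cell line as the only term), with Benjamini-Hochberg adjustment over 15054 genes and a threshold of 0.05. CPM values are TMM-scaled. Shares and ratios used deposited FPKM without a pseudocount and exact permutation tests (scipy 1.17.1). Alternatives were DESeq2 1.42.0, the tool in the study's methods, limma 3.58.1 on FPKM, kept where at least 3 libraries reached 1, after adding 1 or 0.1 and taking log2, RLE and upper-quartile scaling, other filters, a prior count of 2, leaving out each library, blocking on the replicate number, and a GC correction (lowess, span 0.2, GC content of the longest GENCODE 44 transcript, known for 99.6% of tested genes), which removes any mean GC trend between the lines as well. The fit was tested on simulated data. The chain sums without RC4-2B replicate 2 and the calls by other fits around LAMB2 were added after the data were seen.

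Within each line, libraries differed by more than sampling noise. The libraries hold 15707134 to 18052517 counts, so that precision at low counts is limited, and the floor of 3 counts covers counting error only. Upstream sequences were read from the GRCh38 genome, and the RefSeq table (GRCh38.p14) held an upstream sequence for 34 of the 47 genes.

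Values of some genes that the rule and the lists cover are not reported here. The genes and lists were chosen with earlier results of these data known. Values by library were given for genes past the threshold, laminin chains with a mean of at least 0.1 FPKM, tested laminin-binding integrins and the nidogen, perlecan, agrin and dystroglycan genes. Of the lists, the genes past the threshold were named, at most 4 per list, and of the LAMB2 neighbours the nearest 2 on each side. Other genes named (ITGB5, ITGAV, ITGAE, ITGA5, ITGA10, ITGAD, TNS2, FERMT1, FERMT3 and the genes at low counts) were chosen after their values were seen.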

Additional observations from a re-analysis of the deposited data

How the results depend on the processing

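LAMB2 stayed lower and past the threshold in every fit that was run, with a log2 fold change of -2.94 to -2.77 without 1 library, -2.55 with the GC correction and -2.27 with limma on log2(FPKM + 1), and an adjusted p of at most 0.00184. Its share of beta chain FPKM differed by -59.3 to -54.6 percentage points without 1 library, and its log2 ratio to LAMC1 by -3.29 to -2.90, or by -2.54 with log2(FPKM + 1). The median of the genes around LAMB2 was between -0.13 and -0.02 without 1 library.

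The number of the 47 genes called higher, 0 as reported, was 1 with no filter and with DESeq2 (LAMB1), 3 with the GC correction, 2 with the GC correction and the replicate block, and 0 to 3 without 1 library. Over the 7 lists, 3 genes were higher and 3 lower with the replicate block, 14 higher with the GC correction, 15 higher with that correction and the block, 11 lower with no filter, 1 higher and 2 lower with limma on log2(FPKM + 1), 1 higher and 1 lower on log2(FPKM + 0.1), and 1 to 16 higher and 1 to 12 lower without 1 library. Over all genes, 162 higher and 136 lower became 604 and 646 with no filter, 500 and 402 with DESeq2, 55 and 74 with the replicate block, 657 and 490 with the GC correction, 642 and 564 with both, 46 and 58 or 39 and 47 with limma, and 13 to 1000 and 31 to 925 without 1 library. With no filter more genes were tested, and the cause of the changes in any of these counts was not tested.

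Directions reversed only for genes that did not pass: ITGB1BP1 was -0.11 with the GC correction, -0.10 with the block as well, and -0.032 to 0.12 without 1 library, LAMA5 was 0.15 and 0.17 with the GC correction without and with the block, and without 1 library ITGA2 ranged from -0.29 to 0.093, ITGA2B from -0.28 to 0.57, ITGAE from -0.026 to 0.17 and ITGAV from -0.11 to 0.020. Of the other values for single genes, 562 kept their side of the threshold, 65 lost it and 10 gained it.

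The replicate numbers were not taken as pairs: deviations of libraries with the same number correlated at 0.39, 0.22 and -0.09, and RC4-2B replicate 3 correlated best with C4-2B replicate 1. With the block, LAMB2 was at -2.85 and remained the only one of the 47 genes called. With 3 libraries a line, exact tests cannot pass 0.05, and the spread of RC4-2B replicate 2 enters the error of every value for that line. Genes under about 3 counts could not be compared, and genes among the 47 with up to 20 counts were left out of the main test by the filter.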
